A study of Mus musculus with 12 samples.

Results

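The 37 genes of the mouse mitochondrial genome were examined in total RNA of the hippocampus. They are all the genes whose symbol starts with mt- among the 54532 genes of the deposited transcript tables: 13 messenger RNAs (mRNAs), 2 ribosomal RNAs (rRNAs) and 22 transfer RNAs (tRNAs). All 37 passed the filter on low values, and all lie on chromosome M. Their levels were measured in 12 RNA-seq libraries of mice aged 3 months, 3 for each combination of sex (female or male) and genotype (control or Atrx-cKO). Atrx encodes a chromatin remodelling protein, and cKO stands for its conditional knockout, made in neurons according to the title of the series. Which driver made the deletion, which exons it removed and which alleles the control mice carry is not stated in the labels. The labels call the material hippocampal cells and name no other treatment.

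The mitochondrial genome is a small circular DNA molecule present in many copies per cell. Its proteins are all core subunits of oxidative phosphorylation, the chain of complexes that turns the oxidation of nutrients into ATP, on which neurons depend for ion pumping at synapses. Both strands are transcribed as long RNAs that cover many genes, and the tRNAs that lie between most of the other genes are cut out to free the mRNAs and rRNAs. After this cutting, each RNA can be polyadenylated, stabilised and degraded on its own, so RNAs of 1 transcript can reach different levels. Every other protein of the mitochondrion, including those that transcribe, cut and translate these RNAs, is encoded in the nucleus.

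Levels are given as FPKM. For the mitochondrial genes this is the sequenced bases on a gene per length and per amount of mapped bases in the library. Levels of genes of different length can thus be compared. The libraries held 1.16 to 8.64 Gb of mapped bases, with 1.16 and 2.86 Gb in Atrx-cKO females 2 and 3. In these libraries the median FPKM of 1459 olfactory and vomeronasal receptor genes, which serve as a measure of background outside expressed genes, was 1.97 and 2.25, above the 0.00664 to 0.602 of the other 10. Atrx stood at 55.6 to 63.6 FPKM in control females against 31.0 to 38.2 in Atrx-cKO females, and at 40.2 to 46.9 in control males against 32.3 to 36.5 in Atrx-cKO males. In these deposited values the level of Atrx was lower in the Atrx-cKO libraries of both sexes, without overlap. The scaling used for the tests divides Atrx-cKO females 2 and 3 by 0.667 and 0.642 and control females by 1.03 to 1.16. Whether the Atrx values of females overlap after that scaling was not examined. All 6 pyramidal neuron markers were detected in every group. The labels do not say that each library is a separate mouse, so p-values measure the spread between these libraries. In bulk RNA, fewer cells of a type and less RNA per cell cannot be told apart.

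The genes are packed so closely that several share bases, and the transcripts of the GENCODE M21 annotation (build GRCm38) show where. mt-Atp8 and mt-Atp6, the subunits 8 and 6 of ATP synthase, share 43 bases of 1 mRNA read in different frames, and mt-Nd4l and mt-Nd4, both subunits of complex I, share 7. Reads on the shared stretches belong to both genes. The first sequence is the whole of the first overlap, at chrM:7927-7969 on the plus strand, with the start codon of mt-Atp6 in capitals, and it ends with the stop codon of mt-Atp8. The second is chrM:10152-10188, with the bases common to mt-Nd4l and mt-Nd4 in capitals.
mt-Atp8 with mt-Atp6: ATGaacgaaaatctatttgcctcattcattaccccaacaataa
mt-Nd4l with mt-Nd4: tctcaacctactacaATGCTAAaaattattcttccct

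mt-Co1, which encodes the catalytic subunit of cytochrome c oxidase (complex IV), was the most abundant mitochondrial mRNA per length in 12 of 12 libraries. Its mean over the 6 control libraries was 15476 ± 4643 FPKM (SD, n = 6). The next 5 means were close together: 3651 ± 1349 for mt-Cytb, 3549 ± 1060.4 for mt-Co2, 3225 ± 876 for mt-Nd1, 2657 ± 883 for mt-Co3 and 2538 ± 868 for mt-Atp8. Below them, mt-Nd6, mt-Nd4, mt-Nd2, mt-Nd3, mt-Nd5 and mt-Nd4l ran from 2279 down to 1444 FPKM, and mt-Atp6 was last at 991 ± 1275. Apart from mt-Co1, only mt-Nd5 stood above its neighbour in the order, mt-Nd4l, in all 12 libraries. That step holds for these deposited values and reverses when the nuclear copies described below are summed. The other neighbours changed places between libraries, so most of the order does not go beyond the spread. mt-Co1 made up 25.05 to 48.48% of the summed FPKM of the 13 mRNAs.

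**Figure D1:**
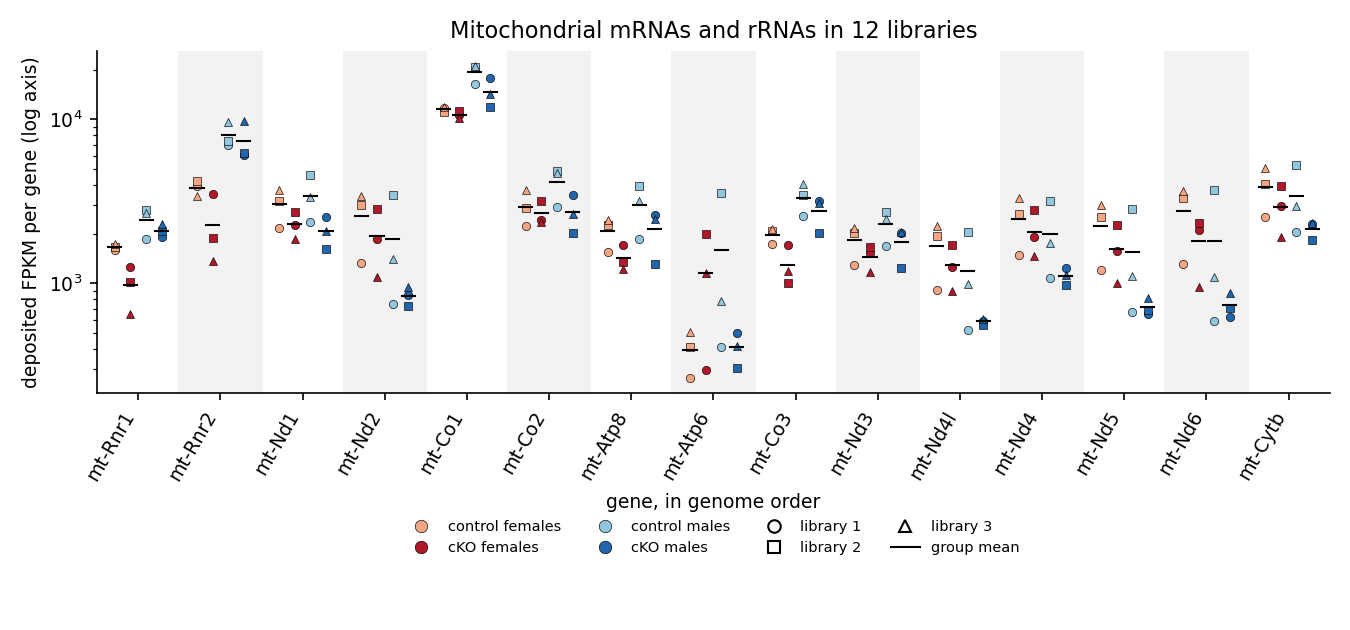
Deposited FPKM (log axis) of the 13 mitochondrial mRNAs and 2 rRNAs in genome order. Each point is 1 of the 12 libraries, coloured by group and shaped by library number, and short lines give group means. mt-Co1 lies above the other mRNAs in every library, and the points of both rRNAs lie higher in all males than in all females.

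Complex IV transfers electrons to oxygen, and mt-Co1, mt-Co2 and mt-Co3 encode its 3 mitochondrial subunits. mt-Co1 (chrM:5328-6872) stood at 11742, 11014 and 11798 FPKM in control females, 10561, 11276 and 10214 in Atrx-cKO females, 16447, 20846 and 21010.5 in control males, and 17779, 11931 and 14248 in Atrx-cKO males. On this deposited scale all 6 males lay above the 11798 FPKM of control female 3, the highest female. The share of all genes that separate the sexes in this way was not counted. The 6 deposited female values of mt-Co1 lay within 10214 to 11798, the narrowest spread of any mRNA within a sex. After the scaling between libraries used for the tests, the sexes overlapped. Atrx-cKO females 2 and 3 then stood at 16908 and 15912, and Atrx-cKO male 2 at 11183. mt-Co2 (chrM:7013-7696) had 2220.1, 2895 and 3693 FPKM in control females, 2449, 3192 and 2355 in Atrx-cKO females, 2929.8, 4821 and 4734 in control males, and 3443, 2020.2 and 2652 in Atrx-cKO males. Its 4 groups overlapped. mt-Co3 (chrM:8607-9390) had 1729, 2077 and 2135 FPKM in control females, 1707, 1004 and 1189 in Atrx-cKO females, 2559, 3433 and 4006 in control males, and 3159, 2037 and 3079 in Atrx-cKO males. Every control male was above every control female, and every Atrx-cKO female was below every control female on this deposited scale.

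Complex I, which oxidises NADH and feeds electrons into the chain, has 7 mitochondrial subunits. mt-Nd1 (chrM:2751-3707), the first mRNA after the rRNAs, had 2178, 3183 and 3712 FPKM in control females, 2274, 2738 and 1857 in Atrx-cKO females, 2365, 4545 and 3366 in control males, and 2520.4, 1625 and 2091 in Atrx-cKO males. mt-Nd3 (chrM:9459-9806) had 1289, 2021 and 2177, then 1524, 1666 and 1176, then 1683, 2707 and 2473, and last 2021, 1245 and 2056, in the same order of groups. In both genes the genotypes overlapped within each sex and the sexes overlapped within each genotype. Control male 2 was the highest library for both. The other 5 subunits shared a different pattern. mt-Nd2 (chrM:3914-4951) had 1333, 2987 and 3395 FPKM in control females, 1872, 2829 and 1094 in Atrx-cKO females, 749, 3448 and 1402 in control males, and 844, 727 and 952 in Atrx-cKO males. Control male 2 stood far above the other control males, at the level of control female 3, and the 3 Atrx-cKO males were below every female. mt-Nd5 (chrM:11742-13565) ran in parallel, with 1209, 2538 and 3004, then 1571, 2257 and 1007, then 671, 2854 and 1108, and last 653, 684 and 814.

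mt-Nd4l (chrM:9877-10173) and mt-Nd4 (chrM:10167-11544) come from 1 mRNA. mt-Nd4l had 911, 1954 and 2226 FPKM in control females, 1261, 1703 and 903 in Atrx-cKO females, 521, 2058 and 995 in control males, and 589, 561 and 609.6 in Atrx-cKO males. mt-Nd4 had 1478, 2655 and 3308, then 1908, 2797 and 1467, then 1084, 3167 and 1762, and last 1234, 981 and 1127. In both, control male 2 again sat with the higher females, and the Atrx-cKO males were below all Atrx-cKO females. mt-Nd6 (chrM:13552-14070), a membrane subunit of complex I, is the only mRNA of the minus strand. It had 1313, 3318 and 3648 FPKM in control females, 2103, 2339.7 and 955 in Atrx-cKO females, 592, 3712 and 1093 in control males, and 623, 708 and 876 in Atrx-cKO males, nearly the same order of libraries as mt-Nd5 on the other strand. Whether the authors' counting used strand is not given in the sources used here, and reads of mt-Nd6 and of the antisense part of the plus-strand transcript cannot be told apart.

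mt-Cytb (chrM:14145-15288), the mitochondrial subunit of complex III, had 2542, 4028 and 5048 FPKM in control females, 2980.4, 3911 and 1919 in Atrx-cKO females, 2048, 5297 and 2944 in control males, and 2304, 1841 and 2325 in Atrx-cKO males. Its groups overlapped. mt-Atp8 (chrM:7766-7969) had 1552, 2281 and 2443, then 1717, 1355 and 1229, then 1864, 3895 and 3192, and last 2623, 1312 and 2468. Its values overlapped in the same comparisons. mt-Atp6 (chrM:7927-8607), which forms the proton channel of ATP synthase, differed most between libraries of all 13 mRNAs, with a 13.4-fold range. It had 266, 408 and 506 FPKM in control females, 294, 2002 and 1156 in Atrx-cKO females, 411, 3569.5 and 786 in control males, and 500.3, 304 and 416 in Atrx-cKO males. The 3 libraries above 1000 FPKM were Atrx-cKO females 2 and 3 and control male 2.

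mt-Atp6 is among the genes with a near-identical copy in the nuclear genome. Chromosome 1 holds, at chr1:24611535-24616197 on the minus strand, a copy of chrM:6390-11042, on which 7 pseudogenes are annotated. The mitochondrial interval also holds mt-Atp8 and 5 tRNA genes (mt-Ts1, mt-Td, mt-Tk, mt-Tg and mt-Tr). Their match to chromosome 1 was not measured, apart from 43 bases of mt-Atp8 that match Gm10925. No copy was summed for them. The matches of the pseudogenes to the mitochondrial genes were exact over 876 bases for Gm28439 (mt-Nd4), 783 for Gm28437 (mt-Co3), 681 for Gm28661 (mt-Co2), 678 for Gm10925 (mt-Atp6) and 294 for Gm10222 (mt-Nd4l). Gm29216 (mt-Co1) matched over 483 bases with 1 mismatch and Gm28438 (mt-Nd3) over 345 bases with 1 mismatch. The mismatches are shown in capitals, with positions counted from 1 at the 5′ end of the mitochondrial gene: A1066T in mt-Co1 against Gm29216, and T3C in mt-Nd3 against Gm28438. The stretches are chrM:6390-6408 and chr1:24616170-24616188 for the first pair, and chrM:9459-9476 and chr1:24613102-24613119 for the second, with the chromosome 1 sequences read on the minus strand. All other aligned bases are the same, so reads that lie within them match both places.
mt-Co1: ggaAttgttttatccaact
Gm29216: ggaTttgttttatccaact
mt-Nd3: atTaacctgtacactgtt
Gm28438: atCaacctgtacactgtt

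The split of bases between each mitochondrial gene and its copy was measured per library. The mitochondrial gene held 50.4 to 53.5% of the bases of the pair for mt-Co2, 50.1 to 51.8% for mt-Co3, 39.9 to 48.2% for mt-Nd3 and 41.9 to 49.6% for mt-Nd4l. For mt-Nd4 and mt-Co1, of which the copy covers only a part, it held 76.7 to 82.3% and 91.1 to 93.8%. These splits moved little between libraries. For mt-Atp6 the mitochondrial gene held 15.3 to 20.8% in 9 libraries, but 55.1% in Atrx-cKO female 2, 50.9% in Atrx-cKO female 3 and 50.6% in control male 2, the same 3 libraries in which mt-Atp6 itself was high. Its copy Gm10925 had 1482, 1837 and 1936 FPKM in control females, 1392, 1638 and 1122 in Atrx-cKO females, 2063, 3495 and 3309.9 in control males, and 2433, 1358 and 2178 in Atrx-cKO males, with no such step. Summed over gene and copy, mt-Atp6 had a 4.26-fold range in place of 13.4. Its sum was 1741, 2236 and 2434 FPKM in control females, 1680.4, 3633 and 2273 in Atrx-cKO females, 2464, 7049 and 4081 in control males, and 2922, 1656 and 2584 in Atrx-cKO males. With all 7 copies summed, mt-Co1 stayed first at a control mean of 16823 FPKM, mt-Co2 and mt-Co3 followed at 6906 and 5248, and mt-Atp6 moved from last place to the sixth, at 3334. mt-Nd4l then stood at 2989, above mt-Nd5 in every library, and mt-Nd5 was last at 1897.

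**Figure D2:**
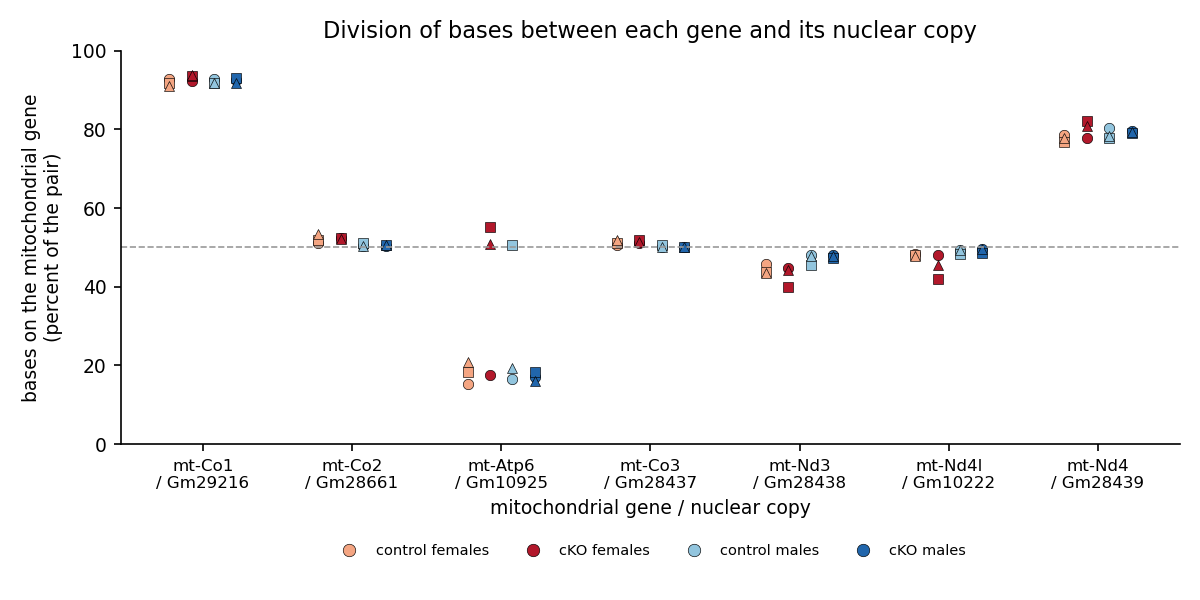
Percent of the bases of each pair that were assigned to the mitochondrial gene rather than to its chromosome 1 copy, for 7 pairs in the 12 libraries. Each point is 1 library, coloured by group and shaped by library number, and the dashed line marks an even split. mt-Atp6 has 9 libraries at 15.3 to 20.8% and 3 at 50.6 to 55.1%, while the libraries of each other pair lie close together.

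mt-Rnr1 and mt-Rnr2 encode the rRNAs of the small and the large subunit of the mitochondrial ribosome. Libraries were made with the ScriptSeq Complete Gold kit, whose Gold version is known to deplete mitochondrial as well as cytoplasmic rRNA, so these values are of the rRNA that was left. mt-Rnr1 (chrM:70-1024) had 1595, 1676 and 1737 FPKM in control females, 1261, 1016 and 646 in Atrx-cKO females, 1875, 2787 and 2666 in control males, and 1905, 2078 and 2294 in Atrx-cKO males. mt-Rnr2 (chrM:1094-2675) had 3908, 4185 and 3399, then 3515, 1879 and 1364, then 6969.6, 7370.2 and 9613, and last 6086, 6187 and 9711. On this deposited scale all 6 males lay above all 6 females in both rRNAs, and Atrx-cKO females 2 and 3 were the lowest libraries. After the scaling between libraries used for the tests, this held for mt-Rnr2 but not for mt-Rnr1. For mt-Rnr1, control male 1 (1638.5) was then below control female 3 (1688.4), and Atrx-cKO female 2 (1521) was above Atrx-cKO female 1 (1149). The share of all genes that separate 6 males from 6 females was not counted. After scaling, 21.6% of all genes were higher in every control male than in every control female. Between the Atrx-cKO sexes this share was 19.6%. The ratio of mt-Rnr2 to mt-Rnr1 was 1.85 to 2.79 in females and 2.64 to 4.23 in males.

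The 22 tRNA genes are 59 to 75 bases long, shorter than the inserts of most RNA-seq libraries, and bases from mature tRNAs and from longer uncut RNAs cannot be told apart. Their control means ran from 1991 ± 1596 FPKM for mt-Tt, the tRNA for threonine, down to 109 ± 77.2 for mt-Tf, the tRNA for phenylalanine (SD, n = 6). mt-Tt (chrM:15289-15355) had 1111, 2925 and 4405 FPKM in control females, 1963, 4163 and 2171 in Atrx-cKO females, 317, 2625 and 559 in control males, and 279, 488 and 504 in Atrx-cKO males. Control male 2 was the only male within the range of the females. mt-Tf (chrM:1-68) lay far lower and followed the same libraries, with 63.0, 175 and 189, then 94.2, 209.7 and 69.7, then 15.3, 171 and 42.5, and last 12.8, 20.7 and 28.3. The sequences, from GENCODE M21 transcripts on GRCm38, are shown for the highest and the lowest tRNA and for 2 more described next, with the anticodon in capitals. mt-Ta (chrM:5018-5086) is read from the minus strand, and mt-Tg (chrM:9391-9458), mt-Tt and mt-Tf from the plus strand.
mt-Tt: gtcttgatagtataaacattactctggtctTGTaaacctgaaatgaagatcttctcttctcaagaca
mt-Tf: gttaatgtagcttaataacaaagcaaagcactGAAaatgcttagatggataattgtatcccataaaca
mt-Ta: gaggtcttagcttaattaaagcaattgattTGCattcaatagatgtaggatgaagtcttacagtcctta
mt-Tg: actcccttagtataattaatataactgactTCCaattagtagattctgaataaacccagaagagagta

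mt-Ta, the tRNA for alanine, had 996, 2701 and 3188 FPKM in control females, 1569, 2934 and 1014 in Atrx-cKO females, 223, 2988 and 587 in control males, and 221, 309 and 382 in Atrx-cKO males. The library order was close to that of mt-Tt although mt-Ta lies on the other strand. mt-Tg, the tRNA for glycine, went against this pattern and is described because its values stood out. It lies in the interval that has a copy on chromosome 1, and its match there was not measured. It had 324, 999.7 and 2237 FPKM in control females, 579.7, 503 and 507 in Atrx-cKO females, 585, 2575 and 2465 in control males, and 1958, 792 and 15587 in Atrx-cKO males. The 15587 FPKM of Atrx-cKO male 3 gave mt-Tg a 48.1-fold range, the widest of all 37 genes, and 75.9% of the summed tRNA FPKM of that library. The ratio of mt-Tg to mt-Tt was 0.121 to 0.508 in the 6 females and 0.981 to 30.9 in the 6 males, without overlap.

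**Figure D3:**
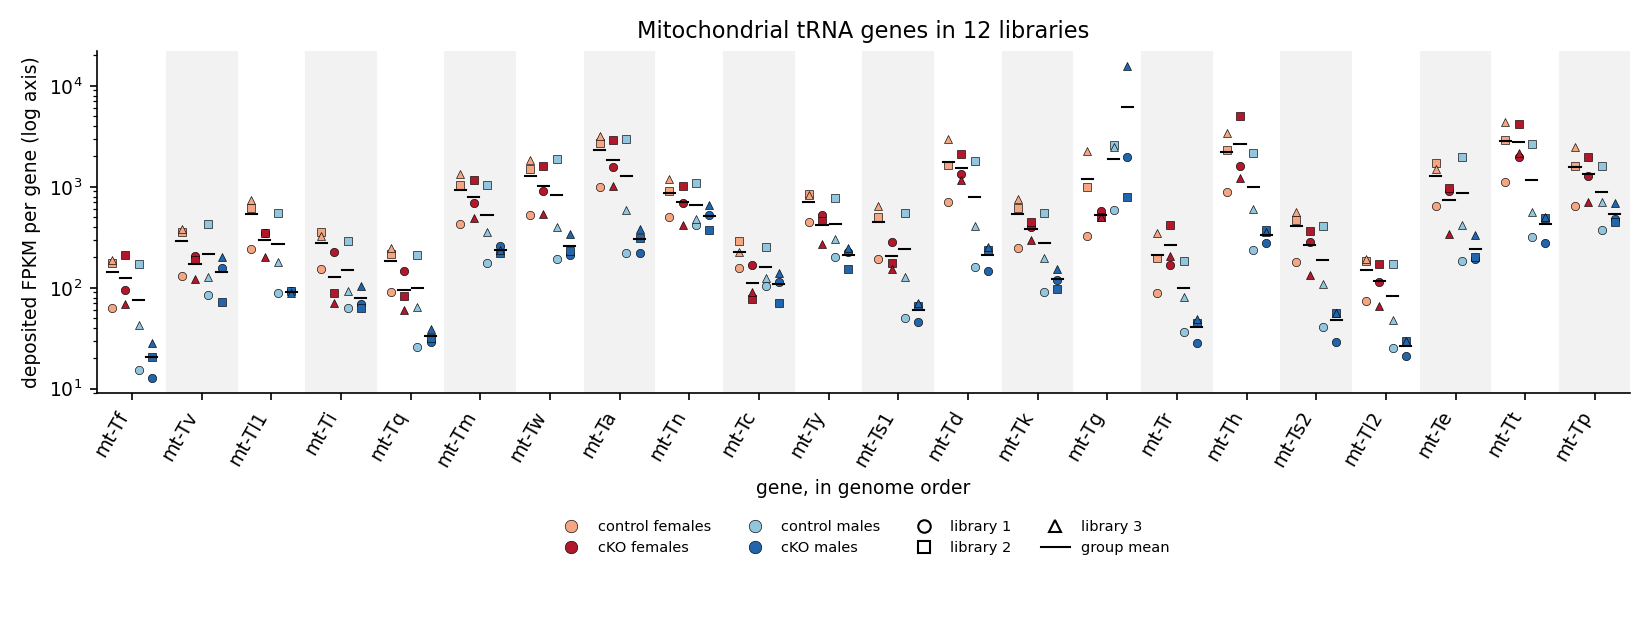
Deposited FPKM (log axis) of the 22 mitochondrial tRNAs in genome order. Each point is 1 library, coloured by group and shaped by library number, and short lines give group means. Most tRNAs show low values in 5 of the 6 males and a high value in control male 2, while mt-Tg has its highest value, 15587 FPKM, in Atrx-cKO male 3.

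The 3 classes differed in how much they varied. Over the 12 libraries the median gene had a fold range of 3.37 among mRNAs (2.06 to 13.4) and 9.76 among tRNAs (3.22 to 48.1), and the rRNAs had 4.32 and 7.12. After scaling between libraries, the pooled standard deviation within groups of the class mean was 0.57 log2 units for mRNAs, 0.25 for rRNAs and 0.91 for tRNAs. Control female 3 was among the 4 highest libraries for 22 of 22 tRNAs, control female 2 and control male 2 each for 21, and Atrx-cKO female 2 for 14. For the mRNAs control male 2 was among the 4 highest for 13 of 13. The lowest mean coverage of a tRNA in any library was 75.9 bases deep, and that of an mRNA 1113.

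Levels of some genes moved together. Likeness was measured as the standard deviation, over the 12 libraries, of the log2 ratio of 2 genes within a library, which is 0 for genes in fixed proportion and needs no scaling. All ratios share the depth and preparation of their library, so this is a description. mt-Nd2, mt-Nd4, mt-Nd4l, mt-Nd5 and mt-Nd6 5 of the 7 subunits of complex I, had 0.09 to 0.44 over their 10 pairs (median 0.21), and mt-Nd1, mt-Co1, mt-Co2, mt-Atp8 and mt-Nd3, from complexes I and IV and ATP synthase, had 0.18 to 0.41 (median 0.29). Between these sets, which were drawn up after the values were seen, the 25 pairs had 0.38 to 1.14 (median 0.76). mt-Cytb, mt-Co3 and mt-Atp6 were in neither set, and mt-Cytb was nearest to mt-Nd4 (0.19). mt-Nd5 and mt-Nd2 were the closest pair of mRNAs: their ratio stayed within 0.773 to 0.942 while each alone varied 4.60-fold and 4.74-fold. mt-Nd6 on the minus strand kept a ratio of 0.88 to 1.34 to mt-Nd5. mt-Tf and mt-Ta, from opposite strands and far apart in level, kept a ratio of 0.0571 to 0.0741 while each alone varied 16.4-fold and 14.4-fold. By contrast, the ratio of mt-Co1 to mt-Nd5 ran from 3.93 to 10.1 in females and from 7.30 to 27.2 in males, with control male 2 the lowest male. mt-Co3 was closest to mt-Rnr1 (0.28) rather than to the other subunits of complex IV.

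Mitochondrial genes took 3.30 to 8.44% of all mapped bases. Bases assigned to the 7 chromosome 1 copies are not counted in these shares. The 13 mRNAs took 4.21 ± 0.805% in control females, 3.56 ± 0.644% in Atrx-cKO females, 5.40 ± 1.46% in control males and 3.67 ± 0.667% in Atrx-cKO males (SD, n = 3 in each group). The groups overlapped, and control male 2 was highest at 6.85%. It is among the 3 libraries in which mt-Atp6 held more of the bases of its pair. The rRNAs took 0.765 ± 0.0594%, 0.449 ± 0.205%, 1.496 ± 0.253% and 1.36 ± 0.343% in the same order, with every male at 1.14% or more and every female at 0.822% or less. The tRNAs took 0.138 ± 0.0727%, 0.112 ± 0.0495%, 0.0830 ± 0.0736% and 0.0692 ± 0.0612%, and all 4 groups overlapped. For Atrx-cKO male 3 the tRNA share of 0.140% was mostly mt-Tg.

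**Figure D4:**
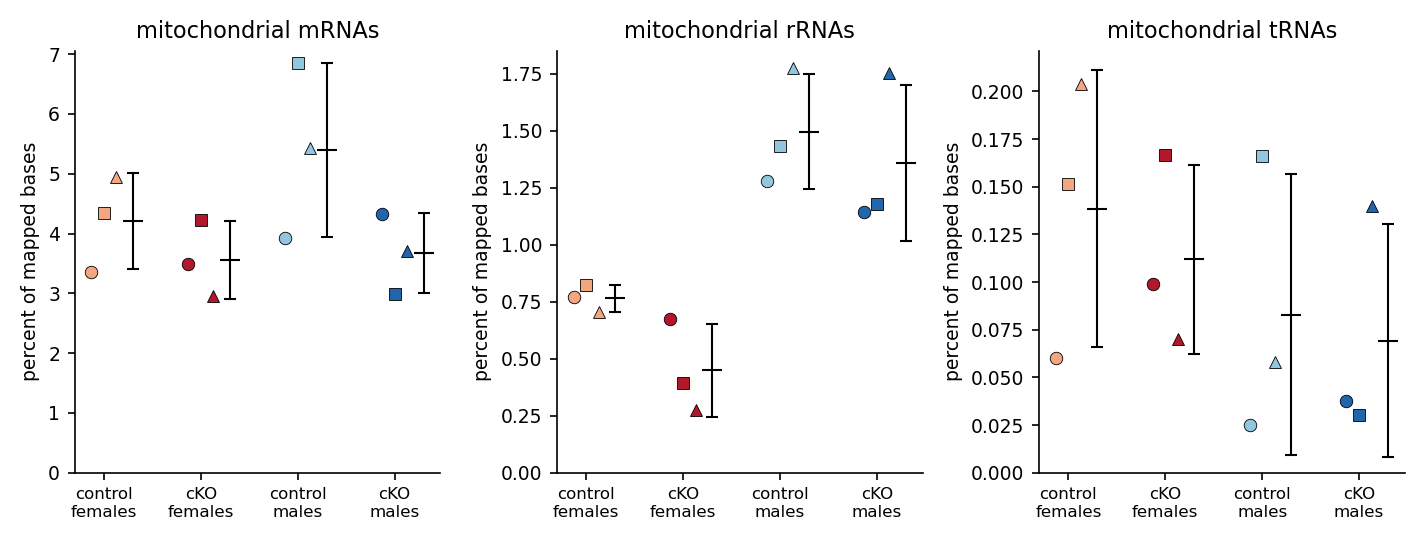
Percent of all mapped bases of a library that fell on mitochondrial mRNAs, rRNAs and tRNAs, each on its own axis, by group. Bases on the nuclear copies are not counted. Points are single libraries, shaped by library number, and bars give the mean ± SD (n = 3). The rRNA shares of the 6 males, 1.14 to 1.78%, lie above those of the 6 females, 0.277 to 0.822%.

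The main question of the design is what the loss of Atrx changed in each sex. Tests used limma on scaled log2(FPKM + 0.5) over 14772 genes, after subtraction of the receptor background, and called a gene at a Benjamini-Hochberg adjusted p below 0.05. In females no mitochondrial gene was called: 0 of 37, against 0.0745% of all genes tested, and 0 of 37 had an unadjusted p below 0.05 in limma, against 28.3% of all genes. The median log2 difference, Atrx-cKO minus control, was 0.12 over the mRNAs, -0.34 over the rRNAs and 0.13 over the tRNAs, beside -0.00 over all genes, with 22 genes above and 15 below 0. The largest was mt-Atp6 at 1.72 (SE 0.92, limma adjusted p 0.241), with the split between gene and copy described above, and with the copy summed it was 0.69 (adjusted p 0.373). mt-Rnr1 differed by -0.32 (SE 0.23, limma adjusted p 0.366) and mt-Rnr2 by -0.37 (SE 0.27, limma adjusted p 0.376). The scaled values of mt-Rnr2 were lower in every Atrx-cKO female than in every control female, as were those of 7.89% of all genes. Those of mt-Rnr1 overlapped, although its deposited values did not. mt-Co1 differed by 0.40 (SE 0.31, limma adjusted p 0.405). The signs of the mRNA and tRNA medians in females depended on the scaling: without background subtraction they were -0.12 and -0.10, without scaling -0.38 and -0.36, and with scaling over all genes -1.12 and -1.09, where the median of all 14772 genes was itself -0.61. Leaving out Atrx-cKO female 1 made mt-Atp6 a call, 1 of 37 beside 37.2% of all genes in that fit. The other libraries left out 1 at a time called no member in females. Without Atrx-cKO females 2 and 3, which leaves 1 library in the arm, the mRNA and tRNA medians were both -0.29.

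In males 0 of 37 mitochondrial genes were called, against 0.00677% of all genes, and 0 of 37 had an unadjusted p below 0.05 in limma, against 2.39% of all genes. The differences leaned to 1 side: 36 of 37 were below 0, and mt-Tg was the exception at 0.92 (SE 1.07). Genes of 1 transcript and 1 library are not independent, and the 37 differences share the values of control male 2. The medians were -0.68 over mRNAs, -0.16 over rRNAs and -1.01 over tRNAs, beside 0.02 over all genes, and they stayed below 0 under every scaling tried. The lowest differences were -1.41 for mt-Ts2, a tRNA for serine, and -1.38 for mt-Atp6, and mt-Nd1 stood at -0.68. With its copy summed mt-Atp6 was at -0.82, and without control male 2, which had the other split, it was at -0.46. Every adjusted p in limma was 0.99987. With each library left out in turn, the mRNA median in males lay between -0.95 and -0.24 and the tRNA median between -1.71 and -0.16, both nearest to 0 without control male 2.

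Averaged over the sexes, 0 of 37 were called (0.0338% of all genes) and 0 of 37 had an unadjusted p below 0.05 in limma (19.5% of all genes), with medians of -0.22, -0.25 and -0.44 for mRNAs, rRNAs and tRNAs. The difference between the sexes in the effect of the knockout, male minus female, was also called for 0 of 37 genes, beside 0% of all genes. The unadjusted p was below 0.05 for 1 of 37, mt-Atp6, beside 6.21% of all genes (log2 difference -3.10, SE 1.30, limma unadjusted p 0.0380, adjusted p 0.589). With its copy summed it was -1.51. The precision was limited: the median standard error within a sex was 0.62 log2 units for the 37 genes and 0.20 for all genes.

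**Figure D5:**
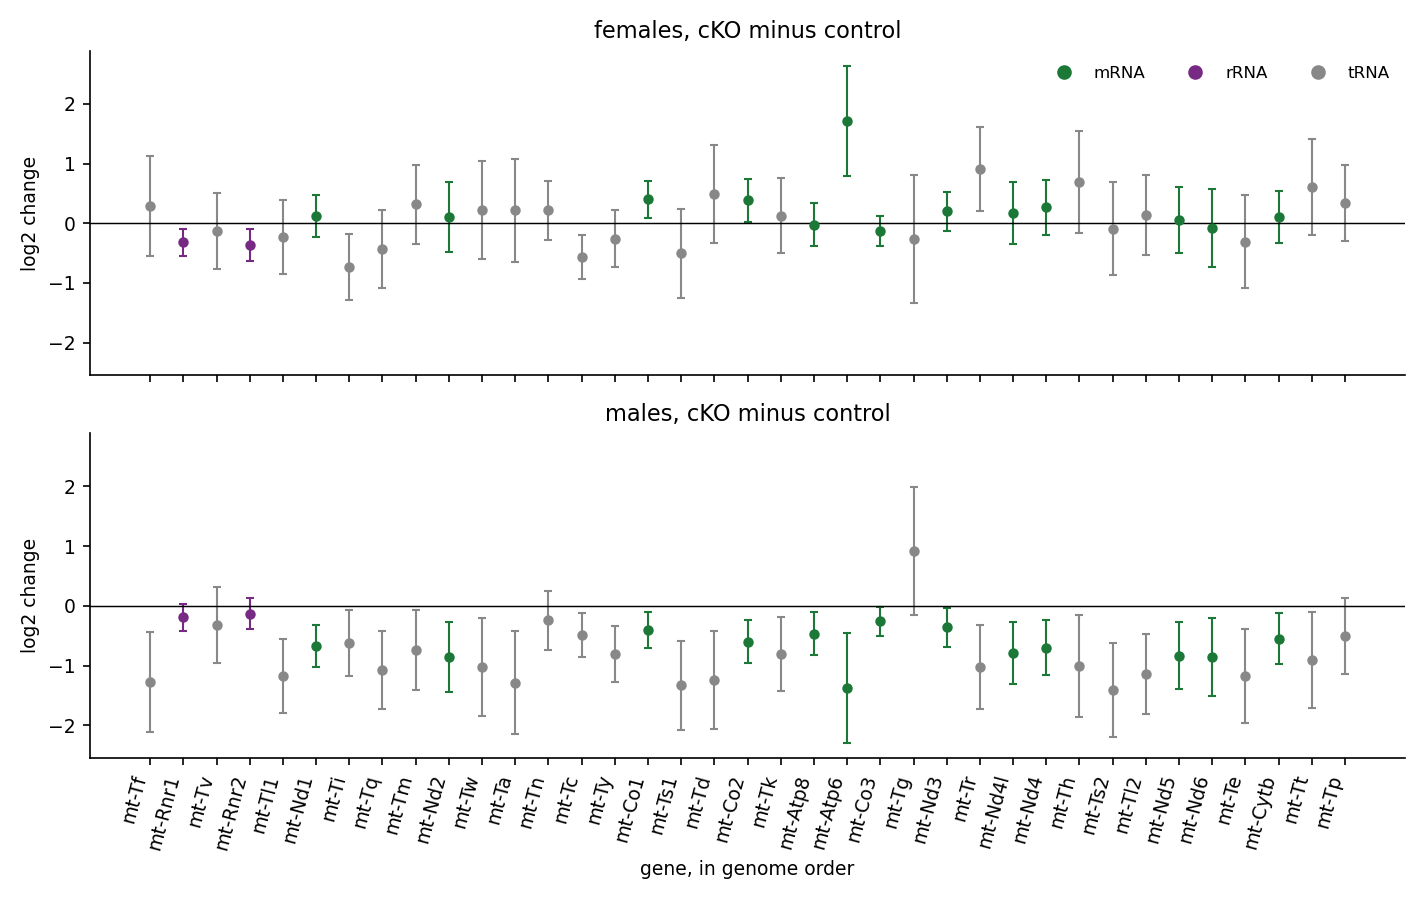
log2 difference (± SE from limma) of each of the 37 mitochondrial genes, in genome order, for Atrx-cKO minus control in females (upper panel) and in males (lower panel), with colours for the 3 RNA classes and a line at 0. In females 22 points lie above and 15 below 0, and in males 36 of 37 lie below 0 with wide errors, mt-Tg being the exception.

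Ratios within a library were compared between genotypes for 5 pairs, which need no scaling between libraries: mt-Nd6 to mt-Nd5 (opposite strands), mt-Rnr2 to mt-Rnr1, mt-Nd4l to mt-Nd4, mt-Atp8 to mt-Atp6, and mt-Cytb to mt-Co1. Exact two-sided permutation tests were made within each sex, where 3 against 3 libraries cannot give a p below 0.1, and over both, where the smallest possible p is 0.005. Of the 15 tests none passed, with p from 0.2 to 0.965 and adjusted p from 0.9 to 0.965. mt-Atp8 to mt-Atp6 had the largest log2 differences, -1.74 in females (exact permutation p = 0.3) and 0.91 in males (exact permutation p = 0.2), and the 3 libraries with the other split between mt-Atp6 and its copy held ratios of 0.677 to 1.09 against 4.06 to 5.94 in the other 9. The remaining ratios differed by -0.29 to 0.06 log2 units.

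Between control males and control females, mt-Rnr2 was higher in males by 1.07 (SE 0.27, limma adjusted p 0.0270), from 3830.2 ± 399 to 7984 ± 1425 FPKM (SD, n = 3). It was the only call among the 37, beside 12.2% of all genes in both directions and 6.79% higher in males, and the call was lost when any of control females 1, 2 and 3 or control males 2 and 3 was left out. Over 19 other settings it was called in 11, with log2 differences of 0.93 to 1.71 and adjusted p of 0.0165 to 0.151. mt-Rnr1 differed by 0.55 (SE 0.23, limma adjusted p 0.152), mt-Co1 by 0.76 (SE 0.31, limma adjusted p 0.139) and mt-Co3 by 0.75 (SE 0.25, limma adjusted p 0.0745). mt-Rnr2, mt-Co1 and mt-Co3 were higher in every control male than in every control female after scaling, as were 21.6% of all genes, and no member was lower in this way, against 26.4%. The tRNAs leaned the other way, with 21 of 22 below 0 and a median of -1.15, but none was called and mt-Tt at -1.63 had a limma adjusted p of 0.228. Without control male 2, mt-Ti, mt-Tq, mt-Ts1 and mt-Ty were called, 4 of 37 beside 5.08% of all genes in that fit, and mt-Rnr2 was not. The mRNA median was 0.18, beside -0.05 over all genes.

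Values of other RNAs are given beside the sex difference of the rRNAs. Rn7sk, the nuclear non-coding RNA that holds back transcription elongation, had 37413 to 66324 FPKM in the 6 females and 83639.8 to 110645 in the 6 males (control sexes: log2 0.75, limma adjusted p 0.226), and Rmrp, the RNA of an RNA-cutting enzyme, had 158 to 900.5 and 833 to 1774, with overlap (control sexes: log2 0.76, limma adjusted p 0.258). Both were picked after their values were seen. The summed FPKM of the 4 oligodendrocyte markers was 568 to 833 in control females and 1315 to 1517 in control males, that of 4 astrocyte markers 373 to 447 and 545 to 621, and that of 4 microglia markers 40.3 to 47.0 and 58.4 to 61.8. For 6 pyramidal neuron markers it was 164 to 217 in control females and 130 to 149 in control males, and for 5 choroid plexus markers 18.9 to 5798 and 1326 to 4040. For 4 dentate granule markers the sums were 33.7 to 45.3 in control females and 23.1 to 26.7 in control males, and for 5 blood markers 98.9 to 146 and 224 to 250. The sums of 4 interneuron markers (162 to 197 and 121 to 164) and 3 endothelial markers (16.8 to 22.3 and 14.9 to 18.2) overlapped. No marker was at 0. All marker sums in this paragraph are of FPKM not scaled between libraries. Between Atrx-cKO females and Atrx-cKO males the oligodendrocyte sums were 347 to 729 and 881 to 1731, the astrocyte sums 218 to 412 and 465 to 546, and the microglia sums 29.8 to 38.6 and 51.6 to 60.2. The pyramidal neuron sums were 127 to 247 and 150 to 169, with overlap, and the choroid plexus sums 34.0 to 45.7 and 47.5 to 2521. The endothelial sums were 19.6 to 27.5 and 16.3 to 19.4. The dentate granule (29.9 to 39.3 and 24.4 to 34.5), interneuron (112 to 145 and 106 to 141) and blood sums (50.1 to 449 and 150 to 243) overlapped. The part of these differences, of the rRNA depletion and of the background in the sex differences of the mitochondrial genes, in control and in Atrx-cKO libraries, was not tested.

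The same comparison between Atrx-cKO males and Atrx-cKO females was added after the data were seen. Here 20 of 37 genes were called, beside 36.5% of all genes: both rRNAs were higher in males (16.9% of all genes), and 3 mRNAs (mt-Nd4, mt-Nd4l, mt-Nd5) and 15 tRNAs were lower (19.7%). mt-Rnr2 differed by 1.31 (limma adjusted p 0.00776) and mt-Rnr1 by 0.68 (limma adjusted p 0.0407). The called mRNAs differed by -1.57 to -1.32 and mt-Td, the tRNA for aspartate, by -3.33 (limma adjusted p 0.0145). mt-Td also lies in the interval that has a copy on chromosome 1. The class medians were -0.87 for mRNAs, 0.99 for rRNAs and -2.12 for tRNAs. With scaling over all genes the mRNA median turned to 0.75, where the median of all genes was 0.87, and mt-Nd4, mt-Nd4l, mt-Nd5 and mt-Ty turned to 0.30, 0.055, 0.045 and 0.17. Scaled values were lower without overlap in 25 genes, as in 21.5% of all genes, and higher in 3, as in 19.6%. The count of calls was 2 to 24 with 1 library left out, beside 12.2 to 53.5% of all genes in those fits. Without Atrx-cKO females 2 and 3, the shallow libraries of high background, the female arm is 1 library that is assumed to vary like the other groups. In that fit 0 of 37 were called, beside 0.549% of all genes, mt-Rnr2 differed by 1.04 (limma adjusted p 0.158), and the medians were -0.13 for mRNAs, 0.89 for rRNAs and -1.93 for tRNAs.

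The proteins that work with these RNAs are encoded in the nucleus, and 4 lists of them were followed in the same fits. In the 2 knockout comparisons and their mean, none of 37 tested genes of mitochondrial transcription and RNA processing, 81 nuclear subunits of oxidative phosphorylation, 78 mitochondrial ribosomal proteins and 17 mitochondrial aminoacyl-tRNA synthetases was called in limma. Unadjusted p below 0.05 was found in females for 13, 10, 23 and 4 of them, beside 28.3% of all genes, and in males for 0, 5, 1 and 0, beside 2.39% of all genes. Their medians lay between -0.03 and 0.08. Between the control sexes the nuclear subunits of oxidative phosphorylation stood higher in males for 43 of 81, and none was lower, with a median of 0.53 beside -0.05 over all genes. Over all genes 6.79% were called higher and 12.2% in either direction. Ndufs5 of complex I rose from 58.4 ± 1.83 FPKM in control females to 103 ± 8.48 in control males (log2 0.81, limma adjusted p 0.000973). Of the mitochondrial ribosomal proteins, 15 of 78 were higher in control males and none lower (median 0.27), with Mrpl18 at 0.76 (limma adjusted p 0.00188). Of the 37 genes of transcription and RNA processing, 1 was called higher and 1 lower. Trmt10c, a subunit of the enzyme that cuts the 5′ ends of mitochondrial tRNAs, was higher by 0.39 (limma adjusted p 0.0201) and Lrpprc, which stabilises mitochondrial mRNAs, was lower in control males (log2 -0.42, limma adjusted p 0.0121). Of the 17 synthetases 1 was called: Gars, which charges glycine tRNA in both compartments, was lower (log2 -0.36, limma adjusted p 0.0163).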

How the data were processed

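Transcript tables of 12 libraries were used. Per the labels, total RNA was isolated and libraries were made with rRNA reduction. The submitters' processing notes name HISAT2 2.0.4, StringTie and GRCm38.p6. The authors' deposited tables give, per transcript, mean coverage (a signal, in reads per base) and FPKM. Printed FPKM of the mitochondrial genes, their copies, Ndufs5, Rn7sk and Rmrp is the deposited FPKM summed over the transcripts of a gene. For the tests and the receptor background, the bases on a gene were divided by its merged exon length and by the mapped bases. The ratio of coverage to FPKM gives the mapped bases (1.16 to 8.64 Gb). Of all genes, 37 are not in GENCODE M21.

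For tests, the median of 1459 receptor genes was subtracted per library. Libraries were then scaled by median of ratios over 5336 protein-coding genes whose mean was 5 or more (mt- genes left out). The filter kept genes whose mean was 1 or more and that reached 1 in 3 libraries. log2(value + 0.5) was fitted with limma 3.58.1 (R 4.3.3, trend, robust) as 4 group means with 8 residual degrees of freedom, and p-values were adjusted by Benjamini-Hochberg over all 14772 genes. The scripts were tested on simulated data. Fold changes of low genes are understated on this scale.

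All 37 genes are counted. Values of single libraries are printed for mRNAs, rRNAs, the tRNAs of highest and lowest control mean and genes called in the planned comparisons, and mt-Ta, mt-Tg, Rn7sk and Rmrp were chosen after their values were seen. Of the nuclear lists, the synthetase and processing genes called between control sexes and the examples of small p are named, not all calls. Members and lists were chosen with earlier results of these data known. Nuclear copies were found with BLAST+ 2.17.0, and those with an identity of at least 99% over most of the copy were summed. Copies of lower identity were found but not summed: Gm13340 (mt-Co1, 97.6%), Gm13341 (mt-Co2, 95.9%), Gm13339 (mt-Nd2, 96.7%) and Gm4076 (mt-Nd5, 95.2%). Python 3.11.15, numpy 2.4.6, pandas 2.3.3 and matplotlib 3.10.9 were used.

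The alternatives were no background subtraction, deposited FPKM unscaled or scaled over all genes, a pseudocount of 0.1, no filter, each library left out, Atrx-cKO females 2 and 3 left out, the replicate number as a block and, added after seeing the data, copies summed. Equal replicate numbers were not used as pairs.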

Additional observations from a re-analysis of the deposited data

How the results depend on the processing

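No member was called for Atrx-cKO against control, in either sex, in the mean or in the difference between sexes, in any other setting except that without Atrx-cKO female 1. There mt-Atp6 was called in females and in the difference (counts of 0 to 1 over the libraries left out). In that fit 37.2% of all genes were called in females and 19.4% in the difference. Scaling over all genes moved the female medians to -1.12 (mRNAs), -1.58 (rRNAs) and -1.09 (tRNAs), the male rRNA median to -0.42, the mean of the sexes to -0.97 (mRNAs) and -1.003 (rRNAs), the difference between sexes to 0.18 (mRNAs), 1.16 (rRNAs) and 0.033 (tRNAs), and control males against control females to 0.82 (mRNAs) and 1.45 (rRNAs). Unscaled values moved the rRNA medians to -0.85 in females, -0.51 in the mean and 0.68 in the difference. The number called between control sexes was 0 with scaling over all genes, unscaled and without background subtraction, beside 0.18, 3.31 and 8.54% of all genes. Over the libraries left out it was 0 to 4, beside 3.64 to 19% of all genes. Scaling over all genes reversed mt-Ty (0.17), mt-Nd4 (0.30), mt-Nd5 (0.045) and mt-Nd4l (0.055) between the Atrx-cKO sexes. It left 6 members called there, beside 67.2% of all genes. The causes were not tested.

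With each library left out, the medians for mRNAs, rRNAs and tRNAs ranged from -0.19 to 0.40, -0.44 to -0.19 and -0.36 to 0.47 in females, from -0.95 to -0.24, -0.33 to -0.04 and -1.71 to -0.16 in males, from -0.41 to -0.04, -0.34 to -0.17 and -0.77 to 0.00 in the mean, from -1.26 to -0.39, 0.02 to 0.30 and -1.66 to -0.25 in the difference, and from -0.08 to 0.46, 0.70 to 0.98 and -1.97 to -0.52 between control sexes. With the replicate number as a block, 0 members were called in the 4 knockout comparisons and 0 genes in the whole table. Deviations of libraries with the same number correlated at 0.13, -0.28 and 0.35 in females and 0.05, -0.10 and 0.19 in males, so the numbers were not taken to pair the libraries. Depth was lowest and background highest in Atrx-cKO females 2 and 3, which enter the comparisons with Atrx-cKO females.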
